A study of Mus musculus with 6 samples.

Results

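The transcripts of the hypoxia-inducible factors were followed in bEND.3 cells, a transformed mouse brain endothelial line, after knockdown of the long non-coding RNA Gm39822. From 49315 counted genes, 10 were taken by their gene symbols: the factor subunits Hif1a, Epas1 and Arnt, their regulators Vhl, Egln1, Egln2 and Egln3, and the target genes Bnip3, Ankrd37 and Adm. In GapmeR samples (n = 4), Gm39822 was targeted with an antisense LNA GapmeR, a short modified oligonucleotide that directs RNase H to cut the RNA it pairs with. In negative control samples (n = 2), cells received a control GapmeR without that target. Both oligonucleotides were used at 100 nM with Lipofectamine 2000, and total RNA was depleted of ribosomal RNA before sequencing. The labels give no oxygen level, no genotype other than the knockdown and no time after transfection for the RNA, and they describe 1 established line, 1 catalogue number for each oligonucleotide and no untransfected cells. Nothing in the labels says that the samples came from separate cultures, so the p-values given here measure the spread between these samples, which may be technical.

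Hypoxia-inducible factors are pairs of an oxygen-regulated alpha subunit and the stable partner ARNT. In oxygenated cells the prolyl hydroxylases encoded by the Egln genes modify the alpha subunits, and the product of Vhl then marks them for destruction by the proteasome. When oxygen is low the alpha subunits persist, bind short DNA elements near their target genes and raise genes of glucose uptake, glycolysis, vessel growth, mitophagy and matrix modification. In endothelium HIF-1 alpha, encoded by Hif1a, and HIF-2 alpha, encoded by Epas1, are both present, and adrenomedullin, encoded by Adm, is a vasodilator peptide that acts on endothelial receptors. Much of the control acts on the alpha proteins, which read counts do not measure.

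The recognised element has the core ACGTG or GCGTG. The 250 bases before the RefSeq transcript start were searched for both cores on both strands. Each promoter belongs to 1 transcript start, and those of Hif1a and Ankrd37 lie inside the gene spans given below. The promoters of 3 targets, and that of Hif1a, are shown because they differ in how many cores they hold, and the capitals mark every core, read as CACGT or CACGC where it lies on the opposite strand. The sequences are RefSeq promoters on build GRCm38.p6, written 5′ to 3′ in the direction of the gene. They are chr7:138909507-138909756 on the minus strand, chr8:45999851-46000100 on the minus strand, chr7:110627407-110627656 on the plus strand and chr12:73907617-73907866 on the plus strand.
Bnip3: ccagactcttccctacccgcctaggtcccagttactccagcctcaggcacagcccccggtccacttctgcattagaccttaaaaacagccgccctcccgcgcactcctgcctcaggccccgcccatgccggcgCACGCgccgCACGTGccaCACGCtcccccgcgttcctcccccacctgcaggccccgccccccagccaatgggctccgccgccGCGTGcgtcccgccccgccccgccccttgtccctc
Ankrd37: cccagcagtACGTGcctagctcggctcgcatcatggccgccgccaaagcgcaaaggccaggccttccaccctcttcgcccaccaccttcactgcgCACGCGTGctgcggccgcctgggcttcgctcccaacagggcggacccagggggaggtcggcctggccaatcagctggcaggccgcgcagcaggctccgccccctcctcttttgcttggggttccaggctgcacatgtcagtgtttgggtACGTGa
Adm: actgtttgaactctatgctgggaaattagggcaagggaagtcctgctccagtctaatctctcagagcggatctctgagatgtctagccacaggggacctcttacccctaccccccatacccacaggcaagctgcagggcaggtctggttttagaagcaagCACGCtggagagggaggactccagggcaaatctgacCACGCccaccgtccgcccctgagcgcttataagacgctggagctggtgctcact
Hif1a: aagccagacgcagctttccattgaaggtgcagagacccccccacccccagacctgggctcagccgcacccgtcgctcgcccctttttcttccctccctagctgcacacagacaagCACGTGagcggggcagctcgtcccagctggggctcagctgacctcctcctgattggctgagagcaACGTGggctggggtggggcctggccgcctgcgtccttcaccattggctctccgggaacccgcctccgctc

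Bnip3 held 2 ACGTG cores, which overlap as the palindrome CACGTG on the 2 strands, and 3 GCGTG cores. Ankrd37 held 2 of each, with the 2 GCGTG cores overlapping each other. Adm held 2 GCGTG cores on the opposite strand, 54 and 90 bases before the start, and no ACGTG. Hif1a held 3 ACGTG cores, of which 2 overlap as the palindrome CACGTG on the 2 strands, and no GCGTG. Among 32851 RefSeq promoters of the same length, 16.6% held ACGTG, 28.2% GCGTG and 38.6% either core, so a match is common, and it is a description of the letters and not a site.

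Total counts were 30264086 to 37117934 in GapmeR samples and 29261988 and 34266811 in controls. The target Gm39822 was counted 2, 1, 4 and 2 times after GapmeR and 61 and 56 times with the control oligonucleotide, so the counts follow the labels (edgeR adjusted p = 8.8e-08). Levels are given as CPM, the count of a gene relative to its library total after TMM scaling, which takes most genes as unmoved. A gene was called where the Benjamini-Hochberg adjusted p of edgeR's quasi-likelihood test, over 18234 tested genes, was below 0.05. By that rule 8268 genes, or 45.3%, were called, 25.4% higher and 20.0% lower. Endothelial markers were abundant in every library, with 12 genes summing to 9296 to 10659 CPM after GapmeR and 11073 and 11544 CPM in controls. Of these 12 markers, 6 (50%) fell and 2 (16.7%) rose, beside the 20.0% and 25.4% of all tested genes. In genes with a mean of at least 10 CPM the shares were 30.7% lower and 21.1% higher. All 12 were counted in every library.

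All 10 genes were tested, and 5 of them fell: Hif1a, Epas1, Vhl, Egln2 and Adm. No gene of the 10 rose. The share called lower was thus 5 of 10 against a background of 20.0% of all tested genes, or 30.7% of the 8870 genes with a mean of at least 10 CPM, a level that 9 of the 10 reached. Among those 8870 genes 51.9% were called in either direction and 21.1% higher, so a call in itself was common at these levels. The 10 genes were chosen with earlier results of these data known, so these shares describe them only. The changes were small: none of the 10 reached 1.5-fold. The median log2 fold change of the 10 was -0.23, beside 0.03 for all tested genes and -0.07 for those of at least 10 CPM. In Hif1a, Epas1, Vhl, Egln2 and Adm every GapmeR sample lay below both controls, a pattern found in 27.3% of all tested genes and 39.1% of those of at least 10 CPM. In Egln1 every GapmeR sample lay above both controls, as in 31.9% and 26.0% of the same genes. The plot of each gene's CPM by sample shows these separations.

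**Figure D1:**
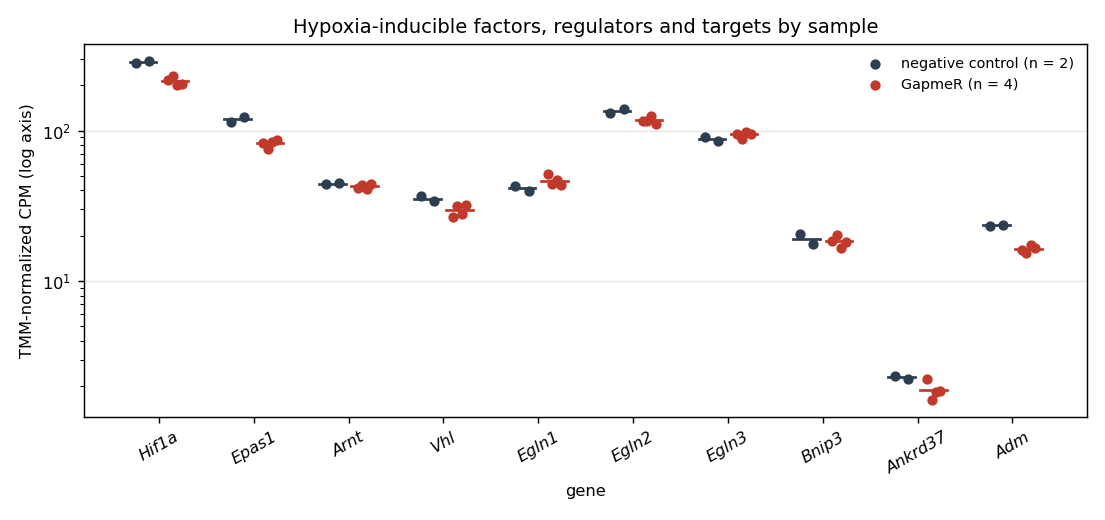
TMM-normalized CPM (log axis) of the 10 genes in each sample, with 2 negative control samples and 4 GapmeR samples as points and group means as lines. The points of Hif1a, Epas1, Vhl, Egln2 and Adm do not overlap between groups and are lower after GapmeR, while those of Arnt, Egln3, Bnip3 and Ankrd37 overlap.

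The call depends on the scale for some of these genes. TMM factors were 1.02 to 1.05 in GapmeR samples and 0.931 and 0.936 in controls, and 22830 to 23566 genes had counts after GapmeR against 20573 and 21087 in controls. When library size alone set the scale, the median log2 fold change of all tested genes moved from 0.03 to 0.17. Called genes were then 45.2% of those tested, 33.5% higher and 11.7% lower, so that 74.1% of calls were higher, against 55.9% with TMM. On that scale Hif1a, Epas1 and Adm were still called lower, Egln1 and Egln3 were called higher, and Vhl and Egln2 were not called. The split among the 10 was 3 lower and 2 higher, in place of 5 lower and none higher with TMM. The plot of each gene's change under both scalings shows the shift.

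**Figure D2:**
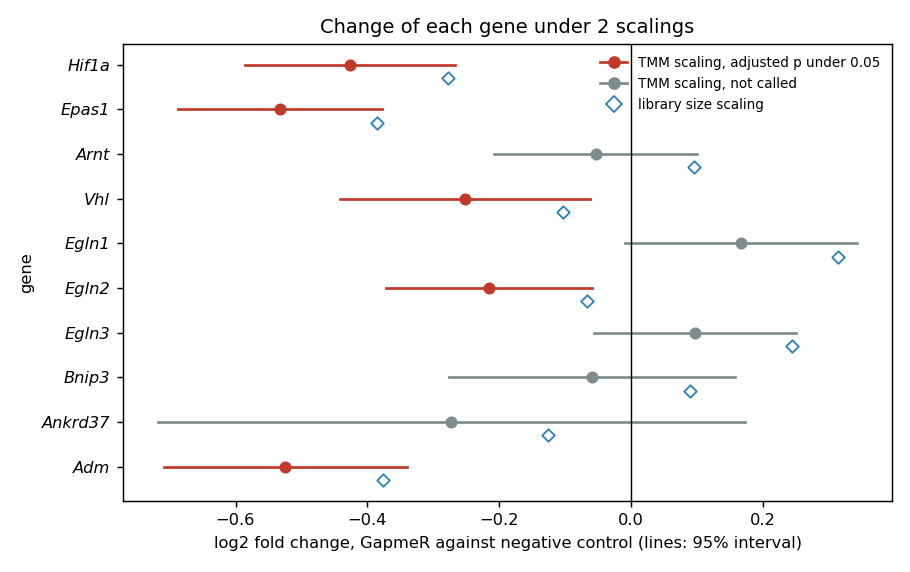
Log2 fold change of each gene, GapmeR against negative control, with TMM scaling (circles, lines for the 95% interval, red where the adjusted p was under 0.05) and with library size scaling (open diamonds). Hif1a, Epas1 and Adm lie below 0 under both, and Arnt and Bnip3 change sign between the scalings.

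Both alpha subunits fell. Hif1a, the alpha subunit found in most cell types (chr12:73901324-73947554, mm10), stood at 218, 230, 199 and 204 CPM in GapmeR samples 1 to 4 and at 281 and 290 CPM in the controls. The highest GapmeR sample was sample 2, and it lay well under the lower control. The mean was 213 ± 13.6 CPM after GapmeR (SD, n = 4), against 286 ± 6.19 CPM in the controls (SD, n = 2). Hif1a thus fell by 25.6%, or -0.43 as a log2 fold change (SE 0.08, 95% interval -0.59 to -0.27, edgeR adjusted p = 0.00023). Epas1, the alpha subunit prominent in endothelium (chr17:86753864-86833410), stood at 82.4, 75.8, 84.4 and 86.0 CPM after GapmeR and at 115 and 123 CPM in the controls. All GapmeR samples were below both controls, with sample 2 the lowest. Its means were 82.1 ± 4.46 and 119 ± 5.68 CPM, and the log2 fold change was -0.53 (SE 0.07, 95% interval -0.69 to -0.38, edgeR adjusted p = 2.0e-05).

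The balance of the alpha subunits was read within each library, where scaling plays no part. There were 2.64, 3.03, 2.36 and 2.38 Hif1a counts per Epas1 count after GapmeR, against 2.45 and 2.36 with the control oligonucleotide. GapmeR samples 1 and 2 were above both controls, and GapmeR samples 3 and 4 lay at the level of the controls. The log2 ratio of Epas1 to Hif1a differed by -0.10 (GapmeR minus control, exact permutation test over 15 splits, two-sided, p = 0.667, where the smallest p the design allows is 0.0667). Without GapmeR sample 2 the difference was -0.03, so its size rested largely on that library.

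Arnt, a partner with which the alpha subunits bind DNA (chr3:95434367-95497240), was at 41.4, 43.4, 41.1 and 44.4 CPM after GapmeR and 43.9 and 44.5 CPM in the controls. The groups overlapped. Its log2 fold change was -0.05 (95% interval -0.21 to 0.10, edgeR adjusted p = 0.577), and it turned to 0.10 with library size scaling. The interval holds no change of the size fitted for Hif1a or Epas1, and the difference between Arnt and either alpha subunit was not tested.

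Vhl, the substrate receptor of the ubiquitin ligase for hydroxylated alpha subunits (chr6:113623994-113631634), stood at 26.7, 31.5, 28.0 and 32.2 CPM after GapmeR and 36.5 and 34.0 CPM in the controls. All GapmeR samples were lower, with GapmeR sample 4 closest to the controls. Its log2 fold change was -0.25 (SE 0.09, 95% interval -0.44 to -0.06, edgeR adjusted p = 0.030). That call was lost with library size scaling (-0.10, edgeR adjusted p = 0.398) and with at least 10 counts required in every sample (-0.20, edgeR adjusted p = 0.0853). It was also lost without GapmeR sample 1 (-0.20, adjusted p = 0.0938), GapmeR sample 3 (-0.20, adjusted p = 0.0851), control 1 (-0.18, adjusted p = 0.273) or control 2 (-0.28, adjusted p = 0.0955) by edgeR.

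Of the 3 prolyl hydroxylase genes, Egln2 fell and the others did not pass, and whether they differ from each other was not tested. Egln1, which encodes PHD2, the main oxygen sensor of the family (chr8:124908587-124949254), stood at 51.2, 44.1, 47.0 and 43.4 CPM after GapmeR and 42.9 and 39.9 CPM in the controls. Every GapmeR sample was above both controls, sample 1 most and sample 4 by little. The log2 fold change of 0.17 (95% interval -0.01 to 0.34, edgeR adjusted p = 0.113) did not pass, but it did with library size scaling (0.31, edgeR adjusted p = 0.0055), with at least 10 counts required in every sample (0.21, edgeR adjusted p = 0.047) and without GapmeR sample 2 (0.20, edgeR adjusted p = 0.0463). Egln2, which encodes PHD1 (chr7:27158658-27166802), stood at 115, 116, 126 and 111 CPM after GapmeR and 131 and 140 CPM in the controls. All GapmeR samples were lower, with sample 3 the nearest.

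The log2 fold change of Egln2 was -0.22 (SE 0.07, 95% interval -0.37 to -0.06, edgeR adjusted p = 0.0251). It was not called with library size scaling (-0.07, edgeR adjusted p = 0.467) or with at least 10 counts required in every sample (-0.17, edgeR adjusted p = 0.0736). It was also lost without GapmeR sample 1 (-0.21, adjusted p = 0.0618), GapmeR sample 4 (-0.19, adjusted p = 0.0668), control 1 (-0.24, adjusted p = 0.0854) or control 2 (-0.15, adjusted p = 0.309) by edgeR. Egln3, which encodes PHD3 and is itself a known hypoxia target (chr12:54178981-54203874), stood at 94.5, 88.4, 98.4 and 95.3 CPM after GapmeR and 91.0 and 85.0 CPM in the controls. The groups overlapped, since GapmeR sample 2 lay between the controls. Its log2 fold change was 0.10 (95% interval -0.06 to 0.25, edgeR adjusted p = 0.292), and with library size scaling it was called higher (0.24, edgeR adjusted p = 0.0104).

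Of the 3 targets among the 10 genes, Adm fell. Adm (chr7:110627657-110629820), whose promoter with 2 GCGTG cores is printed above, stood at 16.1, 15.3, 17.3 and 16.5 CPM in GapmeR samples 1 to 4 and at 23.1 and 23.7 CPM in the controls. The groups were far apart, and the samples within each group were close to each other. The mean was 16.3 ± 0.833 CPM after GapmeR (SD, n = 4), against 23.4 ± 0.433 CPM in the controls (SD, n = 2), and Adm changed on the log2 scale by -0.52 (SE 0.09, 95% interval -0.71 to -0.34, edgeR adjusted p = 0.00013). With library size scaling it was -0.38 (edgeR adjusted p = 0.0024).

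Bnip3, an outer mitochondrial membrane protein that promotes mitophagy (chr7:138890836-138909506), stood at 18.4, 20.2, 16.5 and 18.1 CPM after GapmeR and 20.7 and 17.6 CPM in the controls. The groups overlapped, and the controls lay almost as far apart as the GapmeR samples. The log2 fold change was -0.06 (95% interval -0.28 to 0.16, edgeR adjusted p = 0.668), and it turned to 0.09 with library size scaling. Its relative Bnip3l, which also promotes mitophagy and is not among the 10, fell: it was at 77.5 to 84.6 CPM after GapmeR and 123 and 110 CPM in controls (log2 fold change -0.53, SE 0.07, edgeR adjusted p = 2.1e-05). Whether the pair differ in their change was not tested.

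Ankrd37, an ankyrin repeat protein whose gene is a direct target of HIF-1 (chr8:45996908-46000414), was the least counted of the 10, with 76, 63, 57 and 60 counts after GapmeR and 64 and 71 in the controls. As CPM these were 2.24, 1.62, 1.84 and 1.86 against 2.34 and 2.22. GapmeR sample 1 lay between the controls and the others below them. The log2 fold change was -0.27 (SE 0.21, 95% interval -0.72 to 0.17, edgeR adjusted p = 0.309), so a change of the size fitted for Adm could not be told from none at this depth. In the GENCODE annotation of a later mouse build, 1156 exonic bases of Ankrd37 lie opposite exons of Ufsp2, which had 323 to 520 counts a library, and 369 opposite Lrp2bp, which had 3 to 14. The strand setting of the counting is not given in the sources used here, so reads of these genes cannot be told apart. Egln2 shares 1620 exonic bases with Cyp2t4 on the other strand (5 to 45 counts) and Hif1a 695 with Gm15283 (12 to 27 counts), both small beside the counts of the gene itself. Adm shares 520 with Gm72687 and Egln1 117 with Gm63997, also on the other strand. Neither partner was among the counted genes, so their reads cannot be gauged.

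Levels were compared between genes as CPM per kilobase of exon, with all annotated exons of a gene merged. In controls the order was Hif1a at 34.3 ± 0.742, Egln3 at 32.7 ± 1.57, Epas1 at 21.0 ± 1.00, Egln2 at 17.4 ± 0.782, Adm at 14.4 ± 0.266 and Vhl at 8.45 ± 0.431 (SD, n = 2). Below them came Arnt at 4.73 ± 0.0442, Egln1 at 4.62 ± 0.237, Bnip3 at 4.43 ± 0.505 and Ankrd37 at 1.22 ± 0.0421 CPM per kilobase. Hif1a and Egln3 overlapped between the 2 controls, as did Arnt, Egln1 and Bnip3 with each other, so those neighbours had no order beyond their spread. After GapmeR, Egln3 led at 35.0 ± 1.55 and Hif1a followed at 25.5 ± 1.63 CPM per kilobase (SD, n = 4), with no overlap between their samples. Epas1, at 13.4 to 15.2, and Egln2, at 14.2 to 16.1 CPM per kilobase, overlapped after GapmeR and did not in controls. Among the 3 hydroxylase genes the order per kilobase was Egln3, Egln2 and Egln1 in every sample.

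Further genes of the pathway were taken from hand-written lists. Of 19 partners and regulators of the factors, 18 were tested, 6 fell and 2 rose, with a median log2 fold change of -0.15. The list's share called lower, 33.3%, was near the 30.7% of genes of at least 10 CPM. Hif3a, the third alpha subunit gene, had 0 or 1 counts in every library and was not tested. The other subunits of the VHL ligase did not pass: Elob was at 204 to 260 CPM after GapmeR and 279 and 251 in controls, and Eloc at 61.0 to 74.9 against 68.8 and 65.0. Cul2, the cullin scaffold, was at 19.0 to 22.4 CPM against 22.3 and 20.9, and Rbx1, the RING subunit, at 149 to 195 against 169 and 178. All 4 overlapped between groups, with log2 fold changes of -0.15, -0.02, -0.04 and -0.10 and edgeR adjusted p-values of 0.19, 0.86, 0.75 and 0.46. Without GapmeR sample 2, Rbx1 was called lower (-0.19, edgeR adjusted p = 0.0119). With library size scaling Eloc, Cul2 and Rbx1 turned positive, none of them called.

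Hif1an, the asparaginyl hydroxylase that blocks the coactivator site of the alpha subunits, was at 41.8 to 43.8 CPM after GapmeR and 45.2 and 54.1 CPM in controls. All GapmeR samples were lower, and the call (log2 fold change -0.22, edgeR adjusted p = 0.031) was lost with library size scaling (-0.08, adjusted p = 0.467) or without GapmeR sample 1 (adjusted p = 0.0741), 3 (adjusted p = 0.0507) or 4 (adjusted p = 0.0584). It was also lost with DESeq2's Wald test (-0.22, DESeq2 adjusted p = 0.0519), with at least 10 counts required in every sample (-0.18, edgeR adjusted p = 0.0873) and without GapmeR samples 3 and 4 together (-0.22, edgeR adjusted p = 0.0696). Without control 2 its log2 fold change was -0.07 (edgeR adjusted p = 0.652), so the size rested on that library. Cited2, which competes with the alpha subunits for the coactivators CBP and p300 and is itself a hypoxia target, fell from 235 and 217 CPM in controls to 107, 108, 121 and 128 CPM (log2 fold change -0.96, SE 0.08, edgeR adjusted p = 1.0e-07). Os9, an endoplasmic reticulum lectin reported to bind HIF-1 alpha, fell from 397 and 445 CPM to between 257 and 296 CPM (log2 fold change -0.59, edgeR adjusted p = 1.8e-05).

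Usp20 and Usp33, deubiquitinases that bind VHL, rose. Usp20 was at 21.2, 20.1, 25.0 and 23.0 CPM after GapmeR and 14.2 and 13.9 CPM in controls (log2 fold change 0.67, SE 0.10, edgeR adjusted p = 5.9e-05). Usp33 was at 25.5, 28.0, 22.9 and 26.5 CPM against 16.2 and 17.5 CPM (log2 fold change 0.61, SE 0.10, edgeR adjusted p = 9.0e-05). Groups that do not overlap were a condition for naming both genes, so their separation adds nothing to the calls. Both were also called higher with library size scaling. Without control 2 fewer genes of the partner list were called, and fewer of all tested genes as well. With library size scaling 2 genes of the list were called higher and 2 lower, beside 33.5% and 11.7% of all tested genes.

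Of 66 further HIF targets in 3 lists, 64 were tested, 37 (57.8%) fell and 6 (9.4%) rose. Among all tested genes 20.0% were called lower and 25.4% higher. The median log2 fold change of the targets was -0.32, beside 0.03 for all tested genes. Among the 48 with a mean of at least 10 CPM, 31 fell and 4 rose, beside backgrounds of 30.7% and 21.1% in genes of that level. The targets Car9 and Car12, carbonic anhydrases, had 0 to 5 counts in a library and were not tested. With library size scaling 11.7% of all tested genes were called lower and 33.5% higher, and list counts on that scale are read beside these shares. The lists were chosen with earlier results of these data known, so their shares are a description and no independent support. They share genes with other pathways, and Kdr and Tek are also among the endothelial markers. The plot of the lists' log2 fold changes shows that most called targets lay below the middle of all tested genes.

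**Figure D3:**
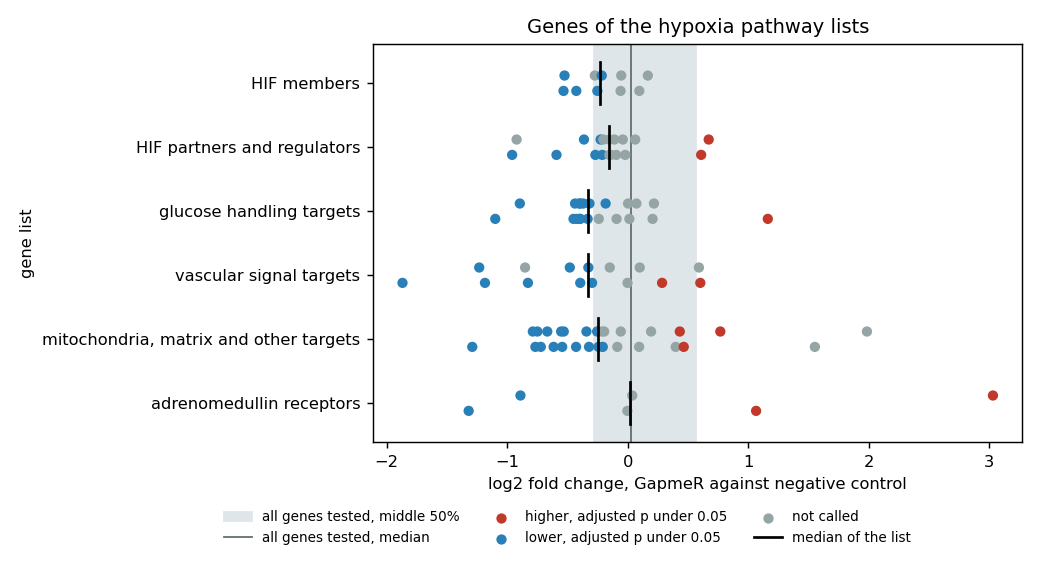
Log2 fold change, GapmeR against negative control with TMM scaling, of each tested gene in 6 lists (points, coloured by call), with the list medians (black lines) and the median and middle range of all tested genes (grey). Called glucose handling targets were 13 lower and 1 higher with TMM, beside 20.0% lower and 25.4% higher of all tested genes. With library size scaling they were 9 lower and 3 higher, beside 11.7% and 33.5%.

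Among 21 targets of glucose handling, 13 (61.9%) fell and 1 (4.8%) rose (median log2 fold change -0.33). The shares were 20.0% lower and 25.4% higher among all tested genes, and 30.7% and 21.1% among those of at least 10 CPM. Slc2a1, the glucose transporter of the brain endothelial barrier, was at 256, 233, 261 and 239 CPM after GapmeR and 336 and 317 CPM in controls, with no overlap (log2 fold change -0.40, SE 0.07, edgeR adjusted p = 0.00037). Aldoa, the glycolytic aldolase, fell by 0.45 on the log2 scale (SE 0.09, edgeR adjusted p = 0.0007), and Pfkl, a phosphofructokinase, fell by 0.44 on the log2 scale (SE 0.09, edgeR adjusted p = 0.00064). Pfkfb4, whose product sets the level of a phosphofructokinase activator, was the 1 gene of the list that rose, from 1.97 and 1.88 CPM to 3.87, 4.01, 4.64 and 4.77 CPM (log2 fold change 1.16, SE 0.18, edgeR adjusted p = 8.8e-05). Eno2, an enolase, was at 3.10, 3.42, 6.22 and 3.31 CPM against 7.30 and 7.55 CPM (log2 fold change -0.90, SE 0.25, edgeR adjusted p = 0.012), with GapmeR sample 3 apart from the other 3. That call was lost in edgeR without control 1 (adjusted p = 0.0688) or control 2 (adjusted p = 0.0937). Without control 1 or control 2 fewer genes of the glucose list were called, and fewer of all tested genes as well.

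Among 15 vascular signal targets, 8 (53.3%) fell and 2 (13.3%) rose, beside 20.0% and 25.4% of all tested genes (median log2 fold change -0.33). In genes of at least 10 CPM the shares were 30.7% lower and 21.1% higher. Angpt2, a ligand of the endothelial receptor Tie2, was at 15.7, 10.7, 13.7 and 10.8 CPM after GapmeR and 41.5 and 51.1 CPM in controls (log2 fold change -1.87, SE 0.15, edgeR adjusted p = 3.8e-06). Stc1, the hormone stanniocalcin, was at 55.1 to 57.6 CPM against 125 and 138 CPM (log2 fold change -1.23, SE 0.07, edgeR adjusted p = 5.1e-10). Separate groups and a large change were conditions for naming both genes. Angptl4, an inhibitor of lipoprotein lipase, fell by 1.18 on the log2 scale (SE 0.08, edgeR adjusted p = 1.2e-08) and Edn1, endothelin, fell by 0.83 on the log2 scale (SE 0.12, edgeR adjusted p = 5.4e-05). Vegfa, the main endothelial growth factor and a classical target, was at 22.2, 23.3, 26.4 and 27.6 CPM against 29.5 and 31.4 CPM (log2 fold change -0.30, SE 0.09, edgeR adjusted p = 0.018). Its groups did not overlap, but the call was lost with library size scaling (-0.15, adjusted p = 0.231), with at least 10 counts required in every sample (-0.25, adjusted p = 0.0528) and without GapmeR sample 1 (-0.24, adjusted p = 0.0584), control 1 (-0.32, adjusted p = 0.072) or control 2 (-0.23, adjusted p = 0.211). With library size scaling the list had 6 genes lower and 3 higher.

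Among 28 tested targets of mitochondria, matrix and other roles, 16 (57.1%) fell and 3 (10.7%) rose (median log2 fold change -0.25). Among all tested genes the shares were 20.0% and 25.4%, and among those of at least 10 CPM 30.7% and 21.1%. Hilpda, a lipid droplet protein, was at 19.1, 19.0, 18.9 and 18.3 CPM after GapmeR and 44.0 and 48.1 CPM in controls (log2 fold change -1.29, SE 0.08, edgeR adjusted p = 1.1e-09). P4ha1, a collagen prolyl hydroxylase subunit, was at 111 to 113 CPM against 191 CPM in both controls (log2 fold change -0.77, SE 0.06, edgeR adjusted p = 9.7e-08). Both were tight within groups, and separate groups were a condition for naming them. Bhlhe40, a transcriptional repressor, fell by 0.75 on the log2 scale (SE 0.08, edgeR adjusted p = 1.4e-06). Hmox1, heme oxygenase, which is also a target of the oxidative stress factor NRF2, rose from 182 and 183 CPM to 305, 306, 308 and 326 CPM (log2 fold change 0.77, SE 0.07, edgeR adjusted p = 3.4e-07). Without control 2 fewer genes of this list were called, and fewer of all tested genes as well. With library size scaling 9 genes of the list fell and 6 rose, beside 11.7% and 33.5% of all tested genes.

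Of 6 receptor genes for the product of Adm, 2 fell, 2 rose and 2 did not pass, beside 20.0% lower and 25.4% higher among all tested genes. The median log2 fold change of the 6 was 0.02, beside 0.03 for all tested genes, and nothing is read from these counts about the 6 as a group. Adrenomedullin is bound by CALCRL together with RAMP2 or RAMP3, while ACKR3 and GPR182 have been proposed as further receptors. Calcrl was at 195, 205, 176 and 172 CPM after GapmeR and 340 and 355 CPM in controls (log2 fold change -0.89, SE 0.08, edgeR adjusted p = 1.8e-07). Ramp3 was at 198, 187, 194 and 214 CPM against 500 and 489 CPM (log2 fold change -1.32, SE 0.07, edgeR adjusted p = 5.4e-10). In both genes the groups did not overlap, which for Ramp3 was a condition for naming it. Ramp2 was at 119, 120, 123 and 129 CPM against 128 and 119 CPM, with overlap, a log2 fold change of -0.00 and a 95% interval of -0.15 to 0.15 (edgeR adjusted p = 0.98), and it turned to 0.15 with library size scaling.

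Ackr3 also overlapped, at 106 to 126 CPM against 115 and 105 CPM (log2 fold change 0.04, edgeR adjusted p = 0.73). Gpr182 rose from 12 and 15 counts in the controls, or 0.438 and 0.470 CPM, to 3.81, 4.24, 3.87 and 3.06 CPM (log2 fold change 3.03, SE 0.26, edgeR adjusted p = 9.7e-08). Ramp1, the partner of CALCRL in the receptor for a related peptide, was low, at 0.668 to 1.24 CPM against 0.475 and 0.407 CPM (log2 fold change 1.07, SE 0.37, edgeR adjusted p = 0.026). It was not called by DESeq2's Wald test or limma-voom, nor in edgeR without GapmeR sample 1, control 1 or control 2, and in each of these 1 gene of the 6, Gpr182, was higher and 2 were lower. The plot of adrenomedullin and its receptor genes shows the values side by side. In the same libraries the ligand and 2 of its main receptor genes were lower and Ramp2 overlapped.

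**Figure D4:**
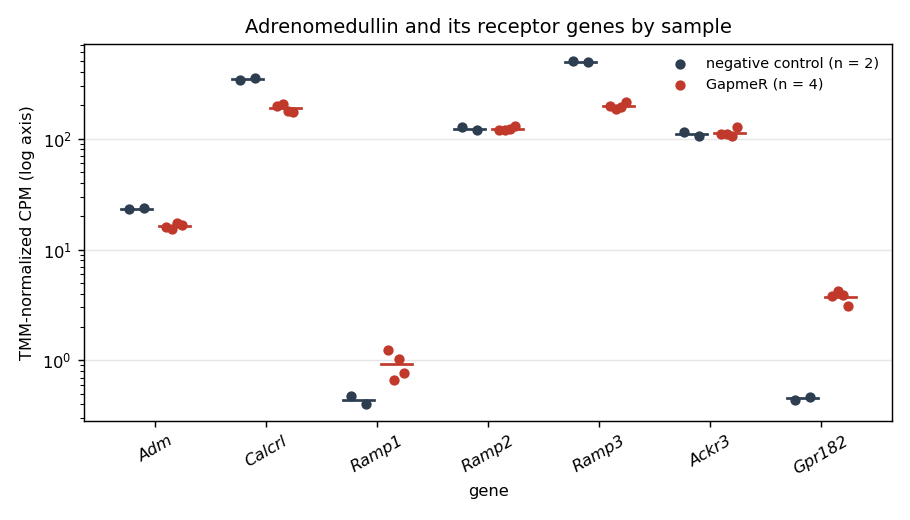
TMM-normalized CPM (log axis) of Adm and 6 receptor genes in each sample, with points for samples and lines for group means. Adm, Calcrl and Ramp3 are lower and Gpr182 higher in all 4 GapmeR samples, while Ramp2 and Ackr3 overlap between groups.

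Markers of other cell types were summed in each library. The sum of 15 macrophage markers was 233, 214, 367 and 399 CPM in GapmeR samples 1 to 4 and 181 and 177 CPM in controls. Of the 15, 4 (26.7%) were called higher, near the 25.4% of all tested genes, and none lower. Their median log2 fold change was 1.09, beside 0.03 for all tested genes, and 1 of the 15 was negative. In 9 of the 15 every GapmeR sample lay above both controls, a pattern found in 31.9% of all tested genes. The sum of 6 fibroblast markers was 17.2 to 22.9 CPM in GapmeR samples 1, 2 and 4, 92.0 CPM in GapmeR sample 3 and 15.9 and 17.5 CPM in controls, with overlap between groups and none called. The 8 markers of pericytes and smooth muscle summed to 6.83 to 10.5 CPM against 1.44 and 2.01 CPM. Of the 6 tested, 1 was called higher, and Des had 0 counts in GapmeR sample 4. The 6 epithelial markers summed to 0.944 to 1.30 CPM against 0.402 and 0.752 CPM, with 1 of the 4 tested called higher. Epcam was at 0 counts in 5 of 6 libraries, while Cdh1 and Krt5 were at 0 in control 1. Astrocyte markers summed to 2.01 to 3.68 CPM against 5.83 and 6.17 CPM, with 2 of 4 called lower, beside 20.0% of all tested genes. Median log2 fold changes of the tested markers were 1.73 for fibroblasts and 0.75 for pericytes and smooth muscle. They were 1.27 for epithelial and -1.05 for astrocyte markers. The part of these cell types or genes in the results was not tested.

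GapmeR samples 3 and 4 had the highest macrophage sums and the lowest Hif1a CPM. GapmeR samples 1 and 2, at 233 and 214 CPM, were also above the controls, at 181 and 177 CPM. Leaving out samples 3 and 4 therefore keeps a difference in that sum and cannot decide its part, which was not tested. Without samples 3 and 4, Hif1a was lower (log2 fold change -0.33, edgeR adjusted p = 0.0070). Epas1 (-0.56, edgeR adjusted p = 1.2e-05), Adm (-0.56, edgeR adjusted p = 0.00014) and Vhl (-0.25, edgeR adjusted p = 0.049) were also lower, while Egln2 was not called (-0.21, edgeR adjusted p = 0.0669). The glucose list then had 11 genes lower and 1 higher, the vascular list 8 and 1, and the list of mitochondria and matrix 13 and 5. The receptor list had 2 and 2, and the partner list 3 and 2. Of all 17524 genes tested in that fit, 3203 were called lower and 4458 higher. In whole-culture RNA, fewer cells of a type and less RNA per cell cannot be told apart.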

How the data were processed

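The authors sequenced ribosomal RNA-depleted libraries as paired reads, processed them with bcbio-nextgen and used STAR for alignment to mm10, with Ensembl transcripts. According to the labels, the submitters' processing notes name Trimmomatic 0.36, STAR 2.5.2b and Subread 1.5.2. The deposited values are raw counts per gene, not normalized. Counting options, strandedness and Ensembl release are not given in the sources used here. The study gives 4 samples per group, and the labels used here give 4 GapmeR and 2 control samples. Another 1 column of per-sample counts matched no label and was not used.

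Every gene that reached 5 counts in 2 or more samples was tested with edgeR 4.0.16 (TMM, robust quasi-likelihood, Benjamini-Hochberg adjustment, 18234 genes, biological coefficient of variation 8.42%) in R 4.3.3. The standard error is the size of the log2 fold change over the square root of F, and n counts samples. Replicates differed by 5.41 to 25.2 in chi-square per degree of freedom, so none was a copy of another. The fit was also run on simulated data with 200 changed genes. That run cannot test the TMM assumption, since 45.3% of genes are called here. Alternatives were DESeq2 1.42.0, limma-voom (limma 3.58.1), other scalings and filters, a 1.5-fold minimum, a replicate block and leaving out each sample. Leaving out GapmeR samples 3 and 4 together was added after the data were seen. Intervals and floors cover the measured spread or counting error only.

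The members and lists were chosen with earlier results of these data known. The text names the 10 members, 9 genes with fixed roles, Gm39822, and from each list up to 4 called genes of at least 1 CPM with groups that do not overlap, by size of change. Bnip3l, Ramp1, Ackr3, Car9, Car12, Hif3a, Kdr, Tek, the overlapping genes Ufsp2, Lrp2bp, Cyp2t4 and Gm15283 and the markers Des, Epcam, Cdh1 and Krt5 were named outside that rule after their values were seen. The overlapping genes Gm72687 and Gm63997, which were not counted, were also named outside it. Promoters are from RefSeq (GRCm38.p6), and gene positions from RefSeq on mm10. All 10 members matched a gene position and 9 (without Epas1) a promoter.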

Additional observations from a re-analysis of the deposited data

Results flagged for a closer look

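In 37 groups of 4 GapmeR samples, 1 for each named gene tested, the sample farthest from the others was compared with Dixon's 95% critical value, which chance passes in about 1 in 20 groups. It was passed by 4 genes, none of them among the 10 genes. Rbx1 was at 195 CPM in GapmeR sample 2, with the nearest other sample at 155 CPM. Eno2 was at 6.22 CPM in GapmeR sample 3, with the nearest at 3.42 CPM. Hmox1 was at 326 CPM in GapmeR sample 4, with the nearest at 308 CPM. P4ha1 was at 111 CPM in GapmeR sample 2, with the nearest at 113 CPM, a small gap in a group of very narrow spread.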

How the results depend on the processing

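Hif1a, Epas1 and Adm were called lower under all 14 alternatives that refit the table, with log2 fold changes of -0.46 to -0.28, -0.59 to -0.38 and -0.58 to -0.38 and adjusted p-values of at most 0.0144, 0.0034 and 0.0080. With library size scaling the log2 fold change was 0.10 for Arnt, -0.10 for Vhl (edgeR adjusted p = 0.398), 0.31 for Egln1, -0.067 for Egln2, 0.24 for Egln3, 0.090 for Bnip3, 0.13 for Eloc, 0.11 for Cul2, 0.054 for Rbx1 and 0.15 for Ramp2, and 4 partner genes were called. With at least 10 counts in every sample it was -0.20 for Vhl (edgeR adjusted p = 0.0853), 0.21 for Egln1 (edgeR adjusted p = 0.047), -0.17 for Egln2 (edgeR adjusted p = 0.0736), 0.0070 for Cul2, 0.027 for Eloc and 0.045 for Ramp2. Ramp2 was at 0.0018 with DESeq2's size factors and with its Wald test. A fold of at least 1.5 left 4628 genes with adjusted and 5110 with unadjusted p-values below 0.05 in edgeR, and it left 0 of the 10 members, 4 partner, 3 glucose, 5 and 6 vascular, and 8 and 9 mitochondrial and matrix genes.

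Leaving out 1 sample gave 5232 to 8719 genes, 3 to 6 members, 4 to 9 partner, 7 to 15 glucose, 7 to 11 vascular and 12 to 20 mitochondrial and matrix genes called, with the fewest genes (5232) without control 2. It moved Vhl between -0.29 and -0.18, Egln1 between 0.12 and 0.24, Egln2 between -0.24 and -0.15, Bnip3 between -0.15 and 0.078, Eloc between -0.085 and 0.039, Cul2 between -0.071 and 0.025 and Ramp2 between -0.032 and 0.067. The 3 members left without GapmeR sample 1, control 1 or control 2 were called lower. A lone control is assumed to vary like the GapmeR samples. Without GapmeR samples 3 and 4, Egln2 was at -0.21 (edgeR adjusted p = 0.0669), Bnip3 at 0.042, Eloc at 0.075 and Rbx1 at 0.0092, and 5 partner genes were called. The replicate block, with 2 shared numbers whose deviations correlated at -0.113 and 0.176, called 7962 genes and 5 members, and turned Bnip3 to 0.022 and Eloc to 0.050. The labels do not say that the numbers pair samples. The cause of these shifts was not tested. With 2 controls, a change smaller than the arm of its 95% interval could not be told from none.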
